A study of Arabidopsis thaliana with 28 samples.

Results

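This section follows 1 step of a UV-B time course in Arabidopsis thaliana roots, from root arrays labelled 0.5 h to root arrays labelled 1 h. The members were taken from the labels alone: the 2 root arrays labelled 1 h and the 2 root arrays labelled 0.5 h, which are 4 of 28 arrays in all. Both root groups came from Col-0 plants (stock N1092) aged 16 days, grown on Murashige and Skoog medium at 24 °C and 50% humidity under 16 h days. Both had received UV-B at 1.18 W/m2 for 15 min from a Philips TL40W/12 lamp, beginning 3 h into the light. The shoot arrays used for comparison, 2 at 1 h and 2 at 0.5 h, carry the same labels apart from the tissue. No array of plants kept without UV-B was analysed here, so every change below is a change between these times and not a change against unexposed roots. Whether the labelled times are counted from lamp on or lamp off is not stated, nor whether the 2 replicates of a group were grown separately. P-values therefore cover only the spread between replicate arrays, part or all of which can be technical. That spread was pooled over all 28 arrays of both tissues and all times, and not taken from the 4 root arrays alone. Both times lie at nearly the same hour of the light period.

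Plants perceive UV-B through the photoreceptor UVR8, which acts with COP1 to raise the transcription factors HY5 and HYH. These switch on genes of phenylpropanoid and flavonoid synthesis, whose products absorb ultraviolet light and are stored mostly as sugar conjugates made by UDP-glycosyltransferases. UV-B, touch, wounding and cold also induce a fast and short-lived set of transcripts, among them WRKY and zinc finger transcription factors and calmodulin-like calcium sensors. In roots, flavonols are known as well for their effect on auxin transport and growth.

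Signals are MAS5 values, a linear brightness summary for each probe set, and with 2 arrays a group, precision is limited by their number. The 4 root arrays had median signals between 45.1 and 47.3 as deposited. Replicate arrays correlated across probe sets at Pearson's r = 0.994 at 1 h and 0.992 at 0.5 h. Changes are differences of log2(signal + 9.58) and understate the change of dim transcripts. Each is given with its standard error from a limma fit to all 28 arrays, and a probe set was called at a Benjamini-Hochberg adjusted p under 0.05 over all 14806 probe sets that passed the filter on low signals.

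Of 14806 probe sets, 472 (3.19%) were called higher and 616 (4.16%) lower at 1 h than at 0.5 h, so 7.35% were called in either direction. Changes of at least 2-fold made up 77 of the higher and 125 of the lower calls. After centring of each array within its tissue the split turned to 605 higher and 515 lower. The median change over all probe sets was 8.94e-05 as deposited and 0.0482 after centring. With 1 root array left out the counts were smaller: 312 were higher and 393 lower without the first 1 h array, 240 and 306 without the second, 310 and 350 without the first 0.5 h array, and 254 and 333 without the second. With an unadjusted p under 0.05, 2692 probe sets passed. Annotation tables named 203 of the higher and 321 of the lower probe sets by exactly 1 gene, and only those are named below.

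The largest rise among the named genes belonged to an enzyme of phenylpropanoid conjugation. Over all 14806 probe sets, called or not, the largest change in either direction was 3.43, on a probe set not named here. UGT84A1 (AT4G15480) encodes a glucosyltransferase of hydroxycinnamic acids, the precursors of soluble UV-absorbing esters. Its signal was 424 and 451 on the 1 h arrays, against 34.3 and 48.5 on the 0.5 h arrays. The groups did not overlap, and the rise was 3.15 ± 0.35 (log2 ± SE, n = 2 each; limma adjusted p = 6.39e-06), the largest rise among probe sets of 1 gene that met the rule for naming. Mean root signals of UGT84A1 were 6.31 at 0.25 h, 41.4 at 0.5 h, 437 at 1 h, 239 at 3 h and 23.8 at 6 h, and the 1 h mean was the highest of the 7 times in roots.

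AT2G22590, listed here among glycosyltransferases of flavonol conjugation, had signals of 461 and 458 at 1 h, against 98.3 and 72.4 at 0.5 h. It rose by 2.32 ± 0.22 (adjusted p = 3.36e-07). AT2G23910, for which the supplied tables give a locus and no function, had 299 and 328 at 1 h, against 47.1 and 55.3 at 0.5 h, a rise of 2.41 ± 0.18. Both were brighter still at 3 h, with mean root signals of 486 and 669. AT4G30470, likewise without a given function, had 578 and 642 at 1 h, against 262 and 209 at 0.5 h (1.35 ± 0.13).

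**Figure D1:**
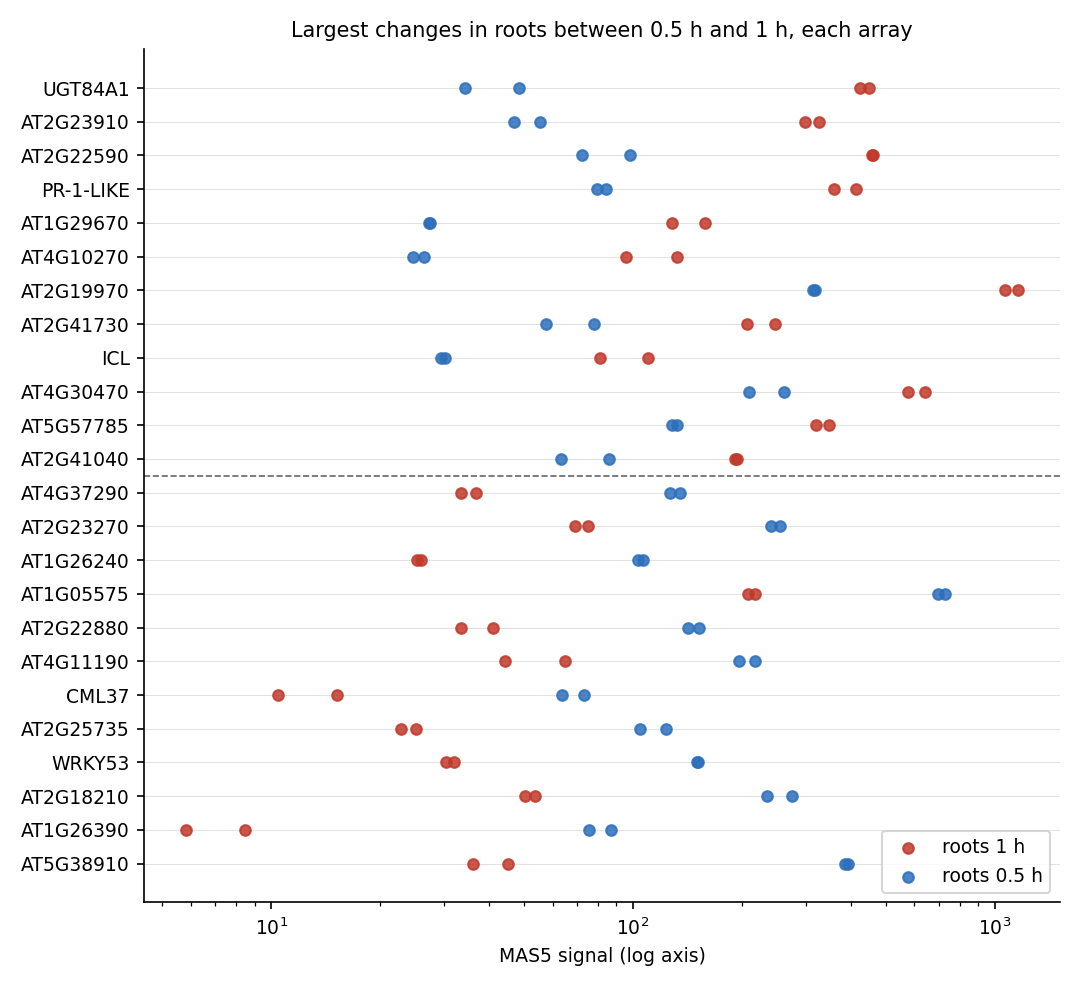
MAS5 signals (log axis) of the 12 named genes with the largest rises (above the dashed line) and the 12 with the largest falls (below it), with red points for the 2 root arrays at 1 h and blue points for the 2 root arrays at 0.5 h. For each of these 24 genes the 2 groups do not overlap, a condition of the rule that chose them; UGT84A1 lies above 400 at 1 h and below 50 at 0.5 h.

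The flavonoid list had 7 members that passed the filter, of 10 named on the array and 28 listed. Of the 7, 5 were called higher and 0 lower, beside 3.19% higher over all probe sets. The median change was 1.03 beside 8.94e-05 over all. The list was chosen with earlier results of these data known, so its count is not independent of these data. UGT78D2 (AT5G17050), the flavonoid 3-O-glucosyltransferase, had 898 and 915 at 1 h, against 405 and 400 at 0.5 h (1.15 ± 0.12; adjusted p = 1.19e-06). AT1G06000, listed among flavonol glycosyltransferases, had 790 and 757 at 1 h, against 334 and 349 at 0.5 h (1.16 ± 0.21). In both, the 1 h arrays lay more than 2-fold above the 0.5 h arrays.

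CHIL (AT5G05270), a chalcone isomerase-like protein that raises the output of the pathway's first steps, had 513 and 538 at 1 h, against 276 and 231 at 0.5 h (1.03 ± 0.20; adjusted p = 0.00234). UGT78D1 (AT1G30530), the flavonol 3-O-rhamnosyltransferase, completes the 5 and was named after its values were seen. It had 121 and 127 at 1 h, against 60.8 and 51.5 at 0.5 h (1.03 ± 0.21). Without the second 0.5 h array 4 of the 7 were called. The 2 listed members that did not pass the test, DFR and UF3GT, belong to the anthocyanin branch. DFR (dihydroflavonol reductase) stood at 19.3 and 14.2 at 1 h, against 16.5 and 18.9 at 0.5 h, with overlapping arrays (-0.06 ± 0.42). UF3GT also overlapped, with 27.5 and 17.7 at 1 h, against 26.1 and 27.8 at 0.5 h (-0.20 ± 0.30).

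Over the labelled times the flavonoid genes did not share 1 course. Mean root signals of UGT78D2 were 201, 402, 907 and 499 at 0.25, 0.5, 1 and 3 h, with the highest level at 1 h. CHIL stood at 179, 254, 525 and 1003 at the same times, with its highest level of the 4 at 3 h. These levels at other times are descriptions without a test.

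The wider phenylpropanoid and hydroxycinnamate list had 11 measured members, of which 1 was called higher and 1 lower, beside 3.19% higher and 4.16% lower over all probe sets, with a median of 0.11. UGT84A1 was the higher one. CCR2 (AT1G80820), a cinnamoyl-CoA reductase that leads towards lignin, was the lower one, with 176 and 185 at 1 h, against 279 and 268 at 0.5 h (-0.57 ± 0.14; adjusted p = 0.00984). The CCR2 call was lost without the pseudocount (0.149) and with any 1 of the 4 root arrays left out (0.0568 to 0.0930). HCT, which makes the shikimate esters of the lignin route, had 757 and 784 at 1 h, against 649 and 692 at 0.5 h (0.20 ± 0.09), and was not called. UGT84A4, a close relative of UGT84A1, had 110 and 113 at 1 h, against 84.9 and 86.8 at 0.5 h (0.34 ± 0.15; adjusted p = 0.203). Relatives can share part of their sequence, and cross-detection between UGT84A probe sets was not tested.

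Of 37 measured UDP-glycosyltransferases with a UGT symbol, 3 were higher and 2 lower, beside 3.19% higher and 4.16% lower over all probe sets. Their median was -0.01. AT2G22590 and AT1G06000, the glycosyltransferases called higher above, were not matched by a UGT symbol and are not counted here. The 3 higher ones were UGT84A1, UGT78D2 and UGT78D1, all named above. The 2 lower ones, named after their values were seen, were UGT73D1 (AT3G53150, -0.97 ± 0.22) and UGT88A1 (AT3G16520, -0.68 ± 0.18). The root mean of UGT73D1 was 108 at 1 h, against 221 at 0.5 h, and that of UGT88A1 was 55.2 at 1 h, against 94.4 at 0.5 h.

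HYH (AT3G17609), the HY5 homologue that acts below UVR8, was the called member of the UV-B and light signalling list, beside 7.35% over all probe sets. It had 247 and 251 at 1 h, against 141 and 121 at 0.5 h, a rise of 0.88 ± 0.13 (adjusted p = 9.71e-05). Its mean root signals of 80.9 at 0.25 h, 131 at 0.5 h, 249 at 1 h and 83.6 at 3 h had their highest value at 1 h, above the later times as well. The other of the 2 measured members of 25 listed was AT1G16260, for which the supplied tables give a locus and no function. AT1G16260 stood at 71.1 and 72.6 at 1 h, against 58.1 and 70.4 at 0.5 h (0.15 ± 0.12, limma adjusted p = 0.627). Whether AT1G16260 acts in light signalling was not tested, so its level is not read as information on that pathway. HY5, COP1 and UVR8 were not analysed here.

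**Figure D2:**
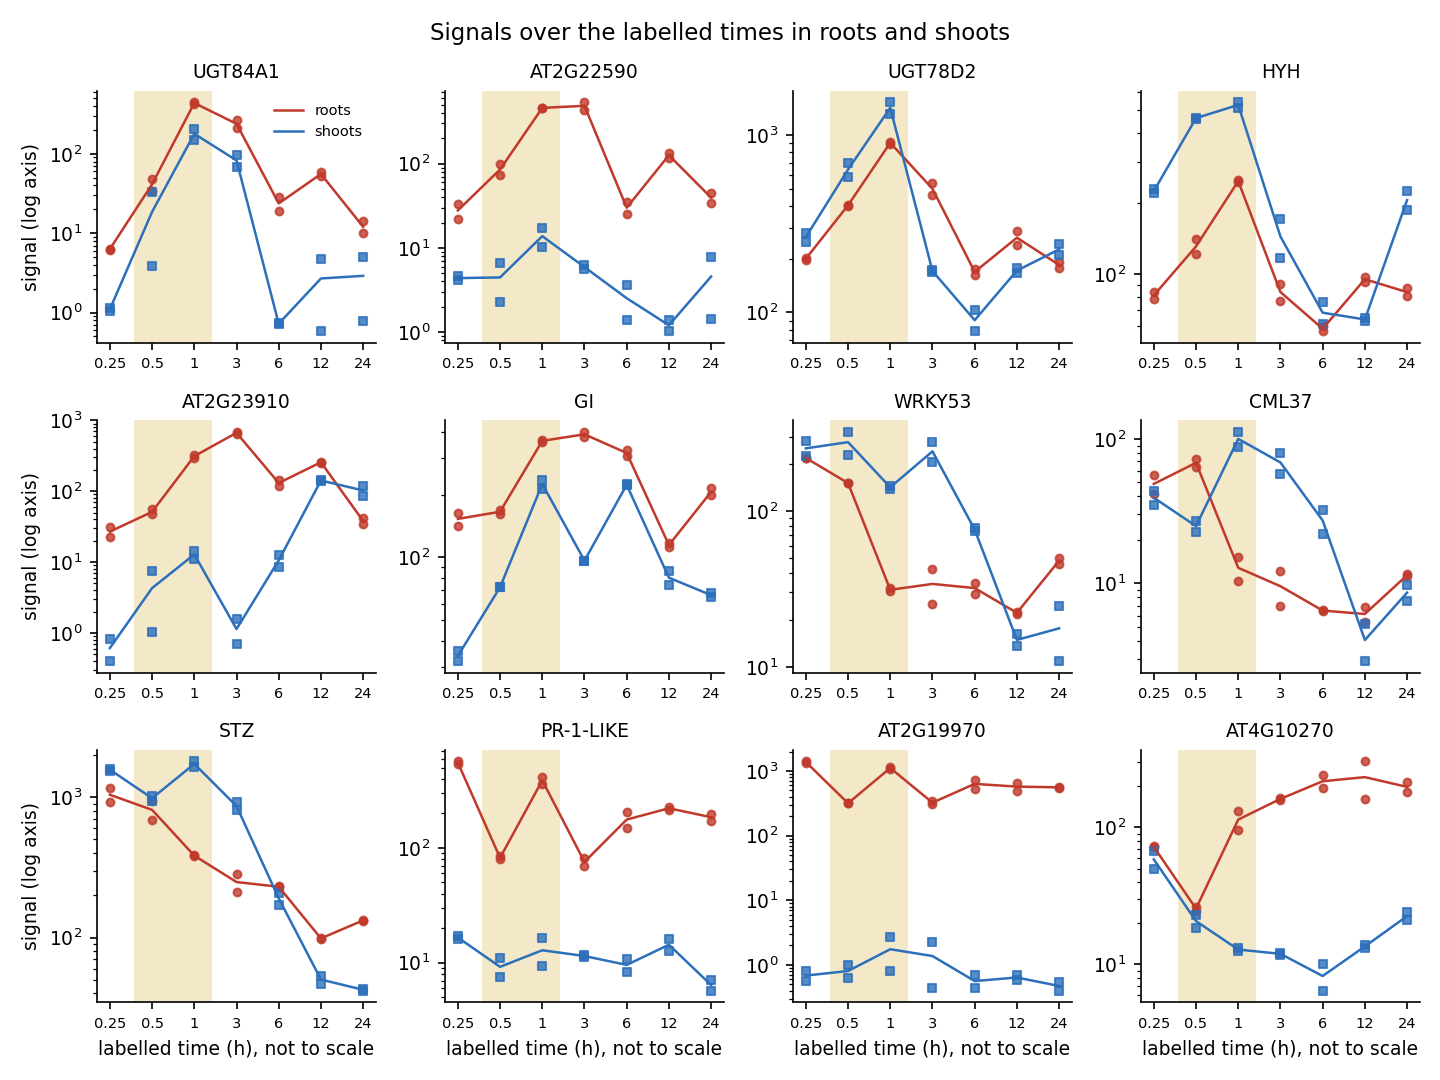
MAS5 signals (log axes) of 12 genes at the 7 labelled times (evenly spaced, not to scale), with red circles and lines for root arrays and their means, blue squares and lines for shoot arrays and their means, and the 0.5 h and 1 h columns shaded. UGT84A1, UGT78D2 and HYH reach their highest root level at 1 h, WRKY53, CML37 and STZ are lower in roots at 1 h than at 0.5 h, and PR-1-LIKE and AT2G19970 stand lower in roots at 0.5 h than at 0.25 h and 1 h.

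GI (AT1G22770), the evening-phased clock protein GIGANTEA, was the called member of the 4 measured clock genes, beside 7.35% called over all probe sets. Signals of GI were 367 and 357 at 1 h, against 170 and 162 at 0.5 h (1.09 ± 0.09; adjusted p = 6.13e-08), and the mean at 3 h was 389. CCL, COR27 and AT4G33980, the other 3, changed by 0.11, 0.06 and -0.06 and were not called. Of the 3 abscisic acid and dehydration genes, the dehydrin COR47 (AT1G20440) was higher, beside 3.19% higher over all probe sets. COR47 had 2007 and 1931 at 1 h, against 1036 and 923 at 0.5 h (1.0 ± 0.14). COR15A and COR15B, cold-induced chloroplast proteins, were dim in roots at both times, at 3.78 to 15.0 on the 4 arrays, and were not called.

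The rapid stress, touch and wounding list had 11 measured members of 47 listed. Of the 11, 7 were called lower and 0 higher, beside 4.16% lower over all probe sets. This list was chosen with earlier results of these data known, so its count is not independent of these data. The median was -0.75 and all 11 had negative changes. Between 5 and 9 were called lower under the alternatives, with 5 without the first 0.5 h array and 5 of the 9 left by a filter at the 75th percentile.

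WRKY53 (AT4G23810), a transcription factor of stress and leaf senescence, had 32.0 and 30.4 at 1 h, against 151 and 151 at 0.5 h. It fell by 1.98 on the log2 scale (SE 0.20; adjusted p = 1.12e-06), with arrays of each time nearly equal. CML37 (AT5G42380), a calmodulin-like calcium sensor, had 15.2 and 10.5 at 1 h, against 73.0 and 63.7 at 0.5 h (-1.80 ± 0.19). STZ (AT1G27730), the zinc finger repressor also known as ZAT10, had 378 and 387 at 1 h, against 935 and 687 at 0.5 h (-1.05 ± 0.14).

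AT4G27280, the brightest of the called list members at 0.5 h, had 384 and 339 at 1 h, against 858 and 1042 at 0.5 h (-1.37 ± 0.17). AT4G29780 had 50.5 and 49.1 at 1 h, against 134 and 142 at 0.5 h (-1.31 ± 0.16). The calcium sensor CML38 (AT1G76650) had 56.9 and 64.9 at 1 h, against 124 and 95.5 at 0.5 h (-0.75 ± 0.15), a call lost without the first 0.5 h array (adjusted p = 0.0676). WRKY22 (AT4G01250), a factor of immune signalling, fell by 0.55 on the log2 scale (SE 0.145) and lost its call under 7 of 13 alternatives, each of the 4 arrays left out in turn among them (adjusted p up to 0.190).

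The 4 listed members that were not called were PUB22 and PUB23, ubiquitin ligases that dampen immune signalling, ORA47 and WRKY6. Their changes were -0.37, -0.53, -0.61 and -0.08. Mean root signals of STZ, WRKY53 and AT4G27280 at 0.25 h were 1039, 219 and 1228, each above their level at 0.5 h. CML37 stood at 48.8 at 0.25 h and 68.4 at 0.5 h. In the calmodulin-like family, 3 of 7 measured members were lower and 0 higher, beside 4.16% lower over all probe sets. CML37 and CML38 are also on the rapid stress list, and the third was CML42 (AT4G20780, -0.69 ± 0.14), named after its values were seen.

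**Figure D3:**
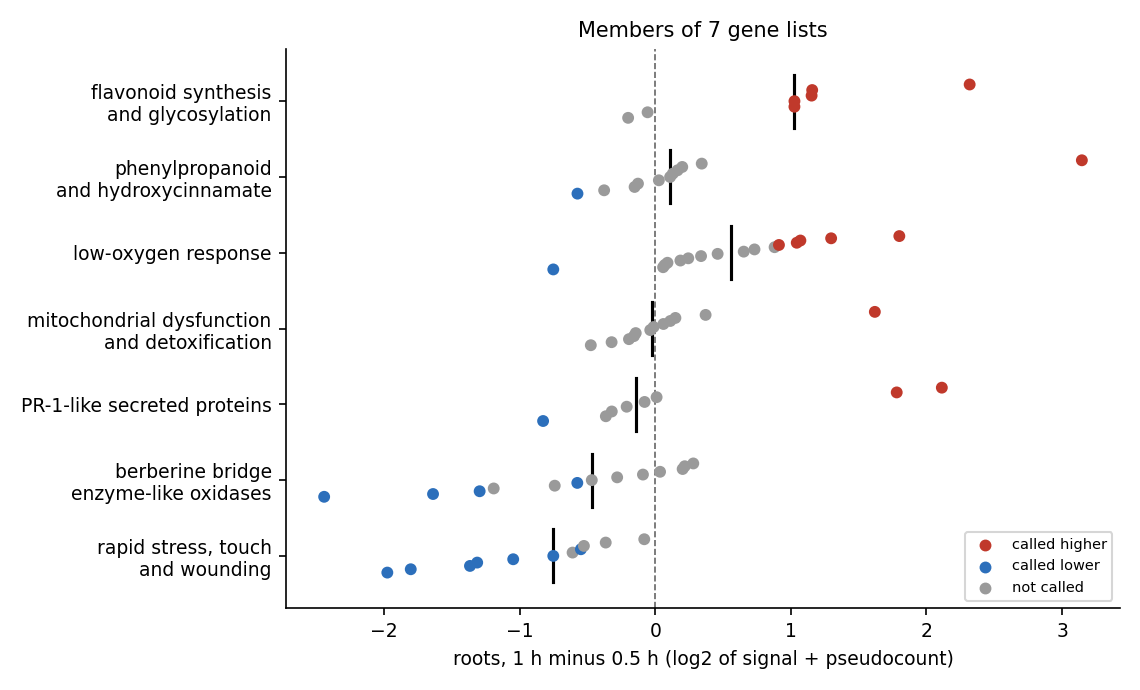
Change in roots, 1 h minus 0.5 h (log2 of signal plus the pseudocount), of each measured member of 7 gene lists, with red points called higher, blue points called lower and grey points not called. Black bars are list medians and the dashed line is the median of all 14806 probe sets; the flavonoid median is 1.03 and the rapid stress median is -0.75.

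Most of the 12 largest falls lay outside these lists. AT5G38910, with no function given in the supplied tables, had 36.2 and 45.0 at 1 h, against 393 and 387 at 0.5 h (-3.0 ± 0.33; adjusted p = 4.76e-06) and was the largest fall by the same rule. AT2G18210 had 50.3 and 53.5 at 1 h, against 275 and 234 at 0.5 h (-2.10 ± 0.22). AT1G05575 was the brightest of them, with 218 and 208 at 1 h, against 730 and 698 at 0.5 h (-1.70 ± 0.15). For each, the 1 h arrays lay far below the 0.5 h arrays.

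AT2G25735, AT2G22880, AT1G26240, AT2G23270 and AT4G37290 fell by 1.88, 1.75, 1.70, 1.66 and 1.65 on the log2 scale. Of the 12 largest falls, 11 had a lower mean root signal at 0.25 h than at 0.5 h, WRKY53 being the exception. Of the 12 largest rises, 7 did. The falls were chosen for being higher at 0.5 h than at 1 h, a choice that favours a high 0.5 h level. The share over all probe sets was not counted. Means at 0.25, 0.5 and 1 h were, for example, 143, 390 and 40.6 for AT5G38910, and 70.8, 248 and 72.2 for AT2G23270. AT4G11190 had 64.8 and 44.2 at 1 h, against 218 and 196 at 0.5 h (-1.77 ± 0.43; adjusted p = 0.0131). Its call was lost without the pseudocount (0.203), when roots were fitted alone (0.105), and without the second 1 h array (0.155), the first 0.5 h array (0.0958) or the second 0.5 h array (0.0696).

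Berberine bridge enzyme-like oxidases are secreted or vacuolar flavoenzymes, several of which oxidise pathogen-derived or defence metabolites. A list of 27 of them, drawn up after the values were seen, had 13 members past the filter, with a median of -0.47. Of the 13, 4 were lower and 0 higher, beside 4.16% lower over all probe sets. AT1G26390, among the 4, was 1 of the 12 largest falls already seen. AT1G26390 had 5.81 and 8.49 at 1 h, against 86.8 and 75.7 at 0.5 h (-2.44 ± 0.59; adjusted p = 0.0154), and lost its call with any 1 of the 4 root arrays left out (0.0805 to 0.107). AT1G26410 had 21.5 and 18.6 at 1 h, against 76.0 and 89.7 at 0.5 h (-1.64 ± 0.24), with the call lost without the pseudocount (0.149). AT1G30700 had 130 and 137 at 1 h, against 371 and 315 at 0.5 h (-1.30 ± 0.15), likewise lost without it (0.0997).

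The fourth of these, AT5G44410, fell by 0.58 on the log2 scale (SE 0.16) and lost its call under 7 of 13 alternatives. AT1G26380 and AT1G26420 had means of 59.0 and 36.9 at 1 h, against 147 and 68.1 at 0.5 h, and were not called (adjusted p = 0.132 and 0.159). The root arrays of AT1G26380 were close, at 58.6 and 59.3 against 145 and 149. Its spread was estimated over all 28 arrays, with shoot replicates of 33.6 and 5.09 at 0.25 h among them. Near-identical copies in this family can share probe sets, so the split between these loci is uncertain. Between 2 and 5 members were lower under the alternatives, with 2 without the pseudocount, without either 1 h array or without the first 0.5 h array. With roots fitted alone 5 were lower and 1 was higher.

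A pair of root transcripts for PR-1-like proteins rose. These secreted proteins belong to the group of PR-1, a marker of salicylic acid defence, though most family members are not known to follow it. PR-1-LIKE (AT2G19990) had 361 and 414 at 1 h, against 84.4 and 79.5 at 0.5 h (2.11 ± 0.15; adjusted p = 1.19e-08). AT2G19970 had 1068 and 1161 at 1 h, against 315 and 319 at 0.5 h (1.78 ± 0.13), and was not called without the pseudocount (adjusted p = 0.0634). The RefSeq gene table of assembly TAIR10.1 places AT2G19970, AT2G19980 and AT2G19990 as consecutive genes, and near-identical copies could share signal.

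Both loci stood lower at 0.5 h than at 0.25 h and 1 h. Mean root signals at 0.25, 0.5, 1 and 3 h were 553, 81.9, 387 and 75.5 for PR-1-LIKE, and 1382, 317, 1114 and 324 for AT2G19970. In shoots PR-1-LIKE lay between 7.46 and 16.3 on the 4 arrays of 1 h and 0.5 h, and AT2G19970 between 0.630 and 2.70 there. Of 8 measured PR-1-like genes, on a list drawn up after the values were seen, 2 were higher and 1 lower. Over all probe sets 3.19% were higher and 4.16% lower. Both higher genes were among the 12 largest rises already seen, so the count is not independent of how the list arose. The lower one was AT4G33720, with 306 and 426 at 1 h, against 629 and 669 at 0.5 h (-0.83 ± 0.14), a call lost without the pseudocount (0.309).

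AT1G29670 had the same dip. Its signals were 129 and 158 at 1 h, against 27.4 and 27.5 at 0.5 h (2.04 ± 0.13; adjusted p = 5.21e-09), and a mean of 68.8 at 0.25 h. The class III peroxidase AT5G64120 (PRX71), which acts in the cell wall, had 356 and 385 at 1 h, against 150 and 166 at 0.5 h (1.18 ± 0.18), and a mean of 276 at 0.25 h. Of the 4 measured class III peroxidases it was the 1 called, beside 7.35% called over all probe sets.

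Transcripts of the low-oxygen response, which in plants is switched on through group VII ethylene response factors, were examined after the values were seen, because AT4G10270 was among the 12 largest rises. Of 35 listed genes 16 passed the filter, and of these 5 were higher and 1 (CML38) lower, with a median of 0.56. Over all probe sets 3.19% were higher and 4.16% lower, and AT4G10270, which prompted the list, is among the 5. AT4G10270 had 132 and 95.7 at 1 h, against 26.4 and 24.7 at 0.5 h (1.80 ± 0.20; adjusted p = 2.50e-06). AT4G27450 had 730 and 797 at 1 h, against 360 and 370 at 0.5 h (1.04 ± 0.20). PDC2 (AT5G54960), a pyruvate decarboxylase of ethanol fermentation, had 342 and 317 at 1 h, against 180 and 162 at 0.5 h (0.91 ± 0.11).

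The other 2 higher genes were dimmer. AT4G33560 had 57.5 and 39.6 at 1 h, against 14.6 and 13.0 at 0.5 h (1.30 ± 0.28), and AT3G10040 (HRA1, a factor that restrains the low-oxygen response) had 55.6 and 29.4 at 1 h, against 16.8 and 12.3 at 0.5 h (1.07 ± 0.32; adjusted p = 0.0448). Their calls were lost under 3 of 14 and 6 of 13 alternatives, among them without the first 1 h array (0.0819 and 0.412) and without the second 0.5 h array (0.0506 and 0.282). The first 0.5 h array, when left out, also ended that of HRA1 (0.107). In all, 3 to 6 of the 16 were higher under the alternatives, with 3 without the pseudocount, the first 1 h array or the second 0.5 h array.

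Of the 5 higher genes, 4 had their lowest mean of the 7 root times at 0.5 h, PDC2 being the exception. The 5 were chosen by their rise from 0.5 h to 1 h, a choice that favours a low 0.5 h level. The share of all probe sets with their lowest root mean at 0.5 h was not counted. AT4G10270 had means of 72.1, 25.5, 114 and 161 at 0.25, 0.5, 1 and 3 h. AT4G27450 had 1198, 365, 763 and 962 at the same times, and AT4G33560 had 110, 13.8, 48.5 and 84.2. PDC2 differed, with 166 at 0.25 h, 171 at 0.5 h, 330 at 1 h and 489 at 3 h.

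Among other large rises, AT2G41730 had 247 and 207 at 1 h, against 57.6 and 77.9 at 0.5 h (1.62 ± 0.19). It was the 1 higher member of 12 measured on the mitochondrial dysfunction and detoxification list, beside 3.19% higher over all probe sets. The list median was -0.02. The other 11, with glutathione transferases, the alternative dehydrogenase NDB2 and the MATE carriers AT2G04050 and AT2G04070 among them, were not called at this step. AT2G41730 and the carrier AT2G04070 were both brighter at 3 h, with root means of 676 and 231, where AT2G04070 stood at 27.0 at 1 h, against 18.8 at 0.5 h.

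AT5G57785 (1.30 ± 0.15) and AT2G41040 (1.28 ± 0.19) were further rises. ICL (AT3G21720), the isocitrate lyase of the glyoxylate cycle, had 81.3 and 110 at 1 h, against 30.3 and 29.6 at 0.5 h (1.4 ± 0.35; adjusted p = 0.0152). Its call was lost without the pseudocount (0.134), with roots fitted alone (0.146), and without the second 1 h array (0.177), the first 0.5 h array (0.0866) or the second 0.5 h array (0.102).

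Hormone lists held few measured genes. Of 6 measured auxin genes, LBD29 (AT3G58190), a factor of lateral root formation, was higher, beside 3.19% higher over all probe sets. LBD29 had 25.1 and 27.7 at 1 h, against 14.5 and 11.8 at 0.5 h (0.66 ± 0.16). Its call was lost without the pseudocount (0.427) and without the second 1 h (0.117) or the second 0.5 h array (0.128). Of the 2 jasmonate, 3 ethylene, 2 gibberellin and 1 cytokinin genes measured, 0 were called by limma after adjustment, and 1, 0, 2 and 0 of them had an unadjusted p under 0.05. Of the 5 heat shock and unfolded protein genes and the 2 nutrient genes, 0 were called, and 3 and 1 had an unadjusted p under 0.05. Of the 1 measured gene each of DNA repair and sugar starvation, 0 passed by either count. The ligase gene ATLIG4 of DNA repair, for example, stood at 68.5 and 70.0 at 1 h, against 71.6 and 49.8 at 0.5 h (0.18 ± 0.13).

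Calls in several larger families are to be read beside the 7.35% called in either direction over all probe sets. Of 14 bZIP factors and 12 glutathione transferases measured, 0 were called by limma after adjustment, and 1 and 4 had an unadjusted p under 0.05. Of 12 expansins 1 was lower, EXLA3 (AT3G45960), with 39.5 and 48.3 at 1 h, against 116 and 121 at 0.5 h (-1.26 ± 0.15). Of 14 cytochromes P450, CYP71B26 was higher (0.49 ± 0.15) and CYP71B28 lower (-0.79 ± 0.18), and both calls were lost when single arrays were left out: CYP71B26 with any 1 of the 4 left out, and CYP71B28 without the second 1 h (0.0522) or the first 0.5 h array (0.0588). Of 6 NPF nitrate and peptide transporters, AT1G59740 (NPF4.3) was higher (0.71 ± 0.17, lost with any 1 of the 4 root arrays left out, adjusted p up to 0.0739) and AT2G26690 (NPF6.2) lower (-0.95 ± 0.14).

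Many plastid-encoded transcripts and some typical of shoots were lower at 1 h. In bulk tissue, fewer cells of a type and less RNA per cell cannot be told apart. Of 69 plastid-encoded genes with a probe set, a list taken up after the values were seen, 23 were lower and 0 higher, beside 4.16% lower over all probe sets. Negative changes were found in 66, and the median was -0.41. Their summed signal was 17835 and 16995 at 1 h, against 24961 and 22265 at 0.5 h. Among all root arrays the 3 h arrays, with 24196 and 25301, were near the 0.5 h level, and the others lay between 15408 and 21567. The 25S rRNA control probe set read 2642 and 1570 at 1 h, against 2789 and 2945 at 0.5 h.

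Among single plastid genes, psbZ, a small subunit of photosystem II, had 247 and 241 at 1 h, against 508 and 436 at 0.5 h (-0.92 ± 0.18; adjusted p = 0.00184). The ribosomal protein gene rpl16 had 320 and 317 at 1 h, against 610 and 537 at 0.5 h (-0.83 ± 0.13). psbA, which encodes the D1 protein, had 132 and 70.9 at 1 h, against 259 and 190 at 0.5 h (-1.12 ± 0.31, limma adjusted p = 0.0355). Its call was lost without the pseudocount (0.0576) and with roots fitted alone (0.136). It was also lost without the second 1 h array (change -0.71) or without the first or second 0.5 h array (-0.90 and -1.34). The number of plastid genes called lower was 13 and 7 without the first or second 1 h array, and 7 and 11 without the first or second 0.5 h array. Of 8 measured mitochondrial genes of the respiratory chain and cytochrome c maturation, 5 were lower and 0 higher, beside the same 4.16%. Signals of nad5 were 79.4 and 58.6 at 1 h, against 139 and 123 at 0.5 h (-0.85 ± 0.17). For nad1, 1 of 4 probe sets was called lower (-0.70 ± 0.17) and 3 were not.

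The shoot marker list had 4 measured genes, of which 2 were lower, beside 4.16% lower over all probe sets. These were LHCB4.2 (AT3G08940, -0.83 ± 0.20) and PSAN (AT5G64040, -0.56 ± 0.12), subunits of the light harvesting complex and of photosystem I. RCA (-0.35, limma adjusted p = 0.163) and LHCB4.1 (-0.25, limma adjusted p = 0.558) were not called. LHCB4.2 lost its call without the second 1 h (0.117) or the first 0.5 h array (0.181), and PSAN without the first 0.5 h array (0.0784). The list summed to 346 and 338 at 1 h, against 498 and 429 at 0.5 h, where shoot arrays summed to 12147 or more. Of 93 probe sets far brighter in shoots at 3 h to 24 h, 19 were lower and 0 higher at this step, beside 4.16% lower over all probe sets, with a median of -0.31. They summed to 1.44% and 1.32% of the shoot level at 1 h, against 2.03% and 1.86% at 0.5 h. Root arrays of the other times lay between 0.930% and 1.74%, so the 0.5 h arrays were the highest of all root arrays. The part of green tissue or organelle RNA in the other results was not tested. Without these plastid and shoot-typical probe sets, a setting chosen after seeing the data, 464 probe sets were called higher and 565 lower.

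The root marker list had 3 measured genes, the root beta-glucosidase PYK10 and the root hair expansins EXPA7 and EXPA18, which summed to 3826 and 3235 at 1 h, against 3661 and 3798 at 0.5 h, and 0 were called by limma (adjusted p = 0.188 to 0.968), with 1 at an unadjusted p under 0.05. Shoot arrays summed to 1488 or less on the same list, so the 4 arrays carried root markers as labelled. The 1488 was on the first 0.5 h shoot array, with 585 on the second. Of 55 probe sets far brighter in roots, 9 were higher and 0 lower, beside 3.19% higher over all probe sets, with a median of 0.11. The 8 listed vascular markers were not analysed here.

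**Figure D4:**
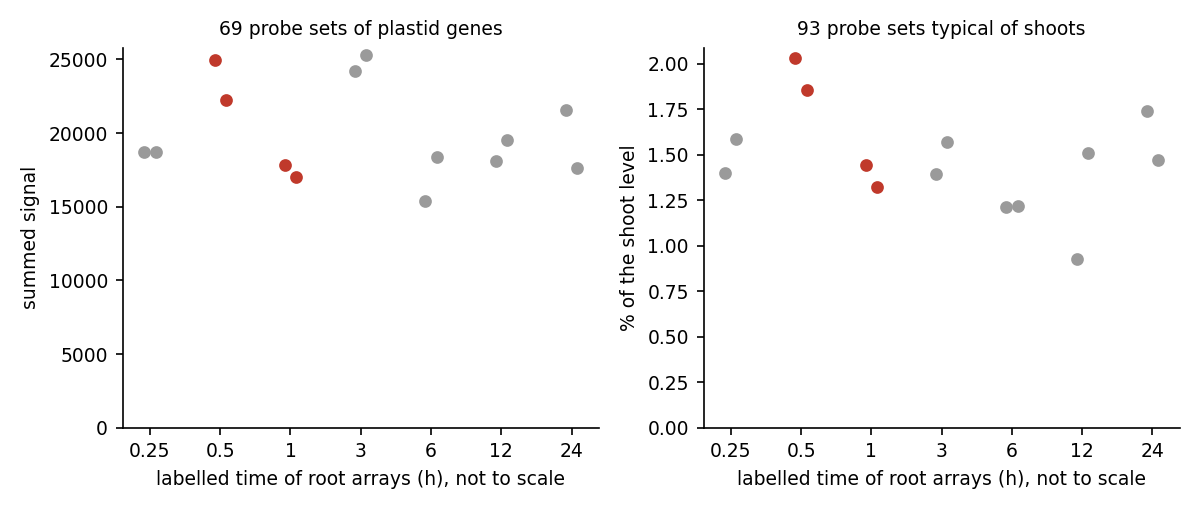
Summed MAS5 signal of 69 probe sets of plastid-encoded genes (left) and summed signal of 93 shoot-typical probe sets as a percentage of their shoot level (right) on each root array, by labelled time (evenly spaced), with the 0.5 h and 1 h arrays in red and the others in grey. Both 1 h arrays lie below both 0.5 h arrays in each panel; the plastid sum at 3 h is 24196 and 25301.

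The last comparison asked whether roots and shoots differed between 1 h and 0.5 h. The test was the difference of the 2 changes, roots minus shoots, in the same fit, and the 4 groups share no array. The first 0.5 h shoot array, which enters every difference, summed to 1824 on the 55 probe sets far brighter in roots. Other shoot arrays summed to 779 or less there. AT5G38910, for example, had 24.2 on that array and 1.94 on the second 0.5 h shoot array. The cause was not tested. Of 14806 probe sets 11.2% (1652) were called, 890 (6.01%) with the more positive change in roots and 762 (5.15%) with the more positive change in shoots. In shoots 1502 (10.1%) were higher and 1701 (11.5%) lower at 1 h than at 0.5 h. Of the 472 probe sets higher in roots, 151 were also called higher and 61 called lower in shoots. Of the 616 lower in roots, 85 were called higher and 158 called lower in shoots. Across probe sets the changes correlated at Pearson's r = 0.13, given as a description since genes are not replicates. Of all root calls, 482 also differed between the tissues.

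UGT84A1 and UGT78D2 rose in both tissues. UGT84A1 rose by 3.15 ± 0.35 in roots and 2.96 ± 0.35 in shoots, with a difference of 0.19 ± 0.49 (adjusted p = 0.855). UGT78D2 rose by 1.15 in each, with a difference of 0.00 ± 0.17. A difference that is not called does not show that the tissues were equal. UGT78D1 differed, with 175 and 146 at 1 h, against 142 and 194 at 0.5 h in shoots (difference 1.08 ± 0.30; adjusted p = 0.0222). AT2G22590 rose by 2.32 in roots and 0.74 in shoots, where its signals were 17.2 and 10.4 at 1 h, against 2.26 and 6.66 at 0.5 h (difference 1.58 ± 0.31; adjusted p = 0.00140). HYH rose by 0.88 in roots and stood at 543 and 512 at 1 h, against 461 and 466 at 0.5 h in shoots (difference 0.70 ± 0.19; adjusted p = 0.0169). The HYH difference was lost without the second 1 h root array (0.0605), the second 0.5 h root array (0.0963) or the second 1 h shoot array (0.0633), and that of AT2G22590 without the pseudocount (0.686). GI rose in both tissues, by 1.09 in roots and 1.52 in shoots, with a difference of -0.44 ± 0.13 (adjusted p = 0.0273) that lost its call under 10 of 17 alternatives.

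Of the 11 rapid stress genes, a list chosen with earlier results known, 9 were called in the difference, beside 11.2% over all probe sets. CML37 stood at 112 and 87.9 at 1 h, against 27.2 and 22.7 at 0.5 h in shoots, while it fell in roots (difference -3.46 ± 0.27; adjusted p = 2.42e-08). AT4G27280 stood at 3438 and 4983 at 1 h, against 1505 and 1911 at 0.5 h in shoots (difference -2.65 ± 0.24). STZ and CML38 also fell in roots and stood higher at 1 h in shoots, with differences of -1.85 and -1.43. PUB22, PUB23 and WRKY6 had positive differences of 0.82, 0.89 and 1.90, and their shoot levels fell by 1.18, 1.42 and 1.99 on the log2 scale.

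The 4 named genes with the most negative difference were AT2G32140, AT3G48640, AT4G37290 and CML37. AT2G32140 had 11.4 and 14.1 in roots at 1 h, against 38.2 and 39.9 in roots at 0.5 h, and 202 and 228 in shoots at 1 h, against 16.6 and 20.0 in shoots at 0.5 h (difference -4.13 ± 0.26; adjusted p = 1.57e-09). AT3G48640 had a difference of -3.79 ± 0.56. In shoots it had 566 and 539 at 1 h, against 48.4 and 59.3 at 0.5 h, and in roots it was not called (-0.64 ± 0.40). AT4G37290 fell in roots and rose in shoots (difference -3.72 ± 0.34).

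The 4 with the most positive difference were PDF1.4, PDF1.2b, AT2G43620 and AT4G27450. PDF1.4 (AT1G19610), of the plant defensin family of small antimicrobial peptides, had 69 and 57.0 in roots at 1 h, against 21.4 and 28.2 in roots at 0.5 h, and 20.5 and 23.1 in shoots at 1 h, against 179 and 108 in shoots at 0.5 h (difference 3.33 ± 0.36; adjusted p = 1.90e-06). PDF1.2b, a jasmonate-responsive defensin, was at 14.9 and 14.8 in roots at 1 h, against 6.31 and 3.73 in roots at 0.5 h, and was not called there (adjusted p = 0.222). In shoots it had 25.9 and 23 at 1 h, against 186 and 157 at 0.5 h (difference 3.16 ± 0.46). PDF1.2b has close copies among the defensins, so its probe set may detect more than 1 gene. AT2G43620 (2.72 ± 0.24) and AT4G27450 (2.49 ± 0.28) were higher in roots and lower in shoots at 1 h.

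**Figure D5:**
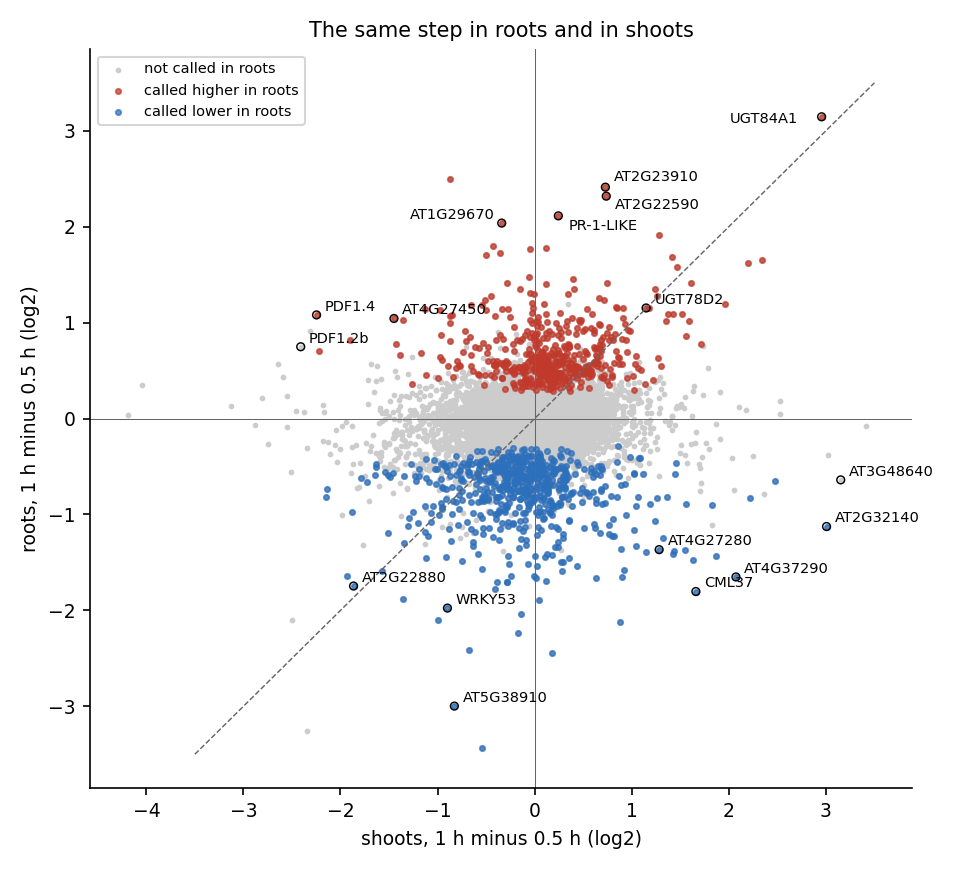
Change from 0.5 h to 1 h (1 h minus 0.5 h, log2) of 14806 probe sets in roots (vertical) and in shoots (horizontal), with probe sets called higher in roots in red, lower in blue and the rest in grey, and the line of equal change dashed. UGT84A1 and UGT78D2 lie near the dashed line, CML37, AT4G37290 and AT2G32140 at the lower right, and PDF1.4 and AT4G27450 at the upper left.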

How the data were processed

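Transcript levels were measured on 28 one-colour Affymetrix arrays of roots and shoots, 2 per tissue and time. The authors deposited linear intensity values per probe set, computed with MAS5 per the submitters' processing notes; its version, settings and detection calls are not given in the sources used here. The mean signal without the lowest and highest 2% of probe sets was alike on all arrays, so the deposited values are on a common scale.

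From the 22810 rows 64 controls were left out. Signals were analysed as log2(signal + 9.58), the 25th percentile of all signals, for the 14806 of 22746 probe sets that exceeded the median of the array in 2 or more of the 28 arrays. limma 3.58.1 (R 4.3.3, statmod 1.5.0) fitted 14 group means to all 28 arrays with trend and robust moderation (14 residual and 7.24 prior degrees of freedom), and p-values were 2-sided and Benjamini-Hochberg adjusted within each comparison. The script was tested on simulated data. Figures used Python 3.11.15, pandas 2.3.3 and matplotlib 3.10.9.

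The supplied annotation paired 13513 probe sets with 1 gene, 503 with more than 1 and 8730 with no gene (7914, 320 and 6572 after the filter). Named genes were the 12 largest changes in each direction among calls whose arrays did not overlap between the times, and the 4 largest called tissue differences each way, both with a mean signal of at least 50 in the higher group. To these came the 4 members of each list and the 2 of each family with the smallest adjusted p. A gene with several probe sets was given by the brightest in roots. Members and lists were chosen with earlier results of these data known. The low-oxygen, berberine bridge enzyme-like, PR-1-like, plastid, mitochondrial and tissue-typical sets were added after the values were seen. Tissue-typical sets differed by at least 5 on the log2 scale between tissues at 3 h to 24 h, with a mean signal of at least 500.

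Alternatives changed the pseudocount (absent, or the median of all signals), the scaling (quantile normalization or centring), the filter (absent, or set at the 75th percentile), the moderation and the arrays fitted (roots alone, or each array left out in turn), or added replicate number as a block. No sequence is given.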

Additional observations from a re-analysis of the deposited data

Results flagged for a closer look

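Each result here was picked out because the step from 0.5 h to 1 h differed between roots and shoots by the test of the difference (roots minus shoots, log2). Among the largest falls in roots, the difference was -3.46 for CML37, -3.72 for AT4G37290, -2.29 for AT2G23270, -2.17 for AT5G38910, -1.41 for AT1G26240, -1.31 for AT1G05575, -1.10 for AT2G18210 and -1.08 for WRKY53. AT2G32140 and AT3G48640, which rose in shoots, differed by -4.13 and -3.79.

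Among the largest rises in roots, the difference was 2.38 for AT1G29670, 2.23 for AT4G10270, 1.87 for PR-1-LIKE, 1.68 for AT2G23910, 1.66 for AT2G19970, 1.58 for AT2G22590, 1.49 for AT4G30470 and 0.96 for AT5G57785. PDF1.4, PDF1.2b, AT2G43620 and AT4G27450, which fell in shoots, differed by 3.33, 3.16, 2.72 and 2.49.

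The difference lost its call without the pseudocount for AT5G38910, AT1G26240, AT2G19970, AT2G22590 and AT2G23910 (adjusted p = 0.612, 0.407, 0.528, 0.686 and 0.813), whose shoot signals on the 1 h and 0.5 h arrays lay between 0.630 (AT2G19970) and 24.2 (AT5G38910). It was lost for AT2G18210 without the pseudocount (0.493) and without the first 1 h root array (0.0700), the second 1 h root array (0.0595), the first 0.5 h root array (0.0856), the first 1 h shoot array (0.0599) or the second 0.5 h shoot array (0.100). For WRKY53 it was lost without the second 1 h root array (0.0600), the second 0.5 h root array (0.0518) or the second 0.5 h shoot array (0.0698).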

How the results depend on the processing

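Fitting roots alone gave 722 higher calls against 472, and 857 lower against 616. Leaving out 1 array in turn gave 240 to 312 higher and 306 to 393 lower calls, and 987 to 1930 calls for the difference between tissues against 1652, with 987 without the second 1 h root array and 1028 without the second 0.5 h root array. Besides these, the alternatives kept all 3 counts within 1.5 times, and under all of them but the 2 chosen after seeing the data, where it was not counted, the root calls shared with the main setting kept their sign (0 opposite). Same-numbered root arrays of 1 h and 0.5 h did not deviate together (r = -0.115 of their deviations), so the numbers were not taken to pair them. Replicate number as a block gave 455 higher and 605 lower calls and 1596 for the tissue difference; with the 1 h root numbers exchanged, chosen after seeing the data, it gave 458 and 611. Of 140 called gene values, counting changes in roots and tissue differences separately, 70 kept their call under all settings run. The tissue difference was reversed for AT1G30700 with a pseudocount at the median (-0.67, against 0.05), and its highest value under the alternatives was 3.39. Shoot signals of AT1G30700 were 0.529 and 0.674 at 1 h, against 21.2 and 12.1 at 0.5 h. For AT1G06000 the difference was reversed without the first 0.5 h shoot array (0.57, against -0.02, and -0.62 without the second). Neither was called in the main setting, and the cause was not tested. With 2 arrays a group, and dim transcripts near the pseudocount, small changes of low signals could not be resolved.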
